A study of Homo sapiens with 12 samples.

Results

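The genes described here are 30 human DNA repair genes that act outside homologous recombination, chosen by symbol: 3 of mismatch repair, 12 of base excision and single-strand break repair, 7 of non-homologous end joining and 8 of nucleotide excision repair. Of the 17099 genes in the OCI-AML2 count table, 29 were members, and of the 16820 genes in the MOLM-13 table, 30 were. Polyadenylated RNA had been sequenced from these established human acute myeloid leukaemia lines after 36 h with the vehicle DMSO or with selinexor, an inhibitor of the nuclear export receptor XPO1. The 4 groups were OCI-AML2 with vehicle, OCI-AML2 with selinexor at 200 nM, MOLM-13 with vehicle and MOLM-13 with selinexor at 75 nM, with 3 libraries each that the submitters describe as biologically independent. Because each line had its own dose, line and dose cannot be told apart. Each line is a single culture model.

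Cells keep several repair systems for different kinds of DNA damage. Mismatch repair corrects errors left by DNA polymerases, base excision repair removes single damaged or wrong bases and seals the nick that results, nucleotide excision repair cuts out stretches around bulky lesions, and end joining ligates broken chromosome ends without a template. End joining and base excision repair work throughout the cell cycle, whereas mismatch repair is coupled to replication and shares its clamp, clamp loader and nucleases with the replication fork. In leukaemia these systems matter because many treatments act by damaging DNA.

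The promoter sequences of the members that hold E2F letters are shown here, since E2F factors drive many replication genes, and ERCC6 is shown as the member that rose most in both lines. RefSeq promoter windows (GRCh38.p14, 250 bases before to 50 after a start) matched 26 of the 30 members, with 46 windows. The letters searched on both strands were TTTGGCGC, TTTCCCGC, TTTGCCGC and TTTCGCGC for E2F, CCAAT for the CCAAT box and TTTGAA for the cell cycle homology region, and overlapping matches were kept. E2F letters stood in 6 of the 46 windows (13.0%), against 3.3% of all 35116 windows of that length. CCAAT letters stood in 45.7% of the members' windows against 34.6% of all, and TTTGAA in 10.9% against 15.2%. The members with E2F letters were MSH3, MSH6, PMS2, UNG and XRCC6. In the following stretches, read 5′ to 3′ on the gene's strand, capitals mark the matches to any of these letters. For MSH6, MSH3 and XRCC6 only a 30-base site is given, and the others are stretches that hold no annotated exon (GENCODE 29).
MSH6 chr2:47783137-47783166 (plus strand): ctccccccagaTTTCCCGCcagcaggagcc
MSH3 chr5:80654534-80654563 (plus strand): gcgcggtcaagTTTGGCGCGAAAttgtggc
XRCC6 chr22:41621315-41621344 (plus strand): tgtccaagttggtcgcttccctGCGCCAAA
UNG chr12:109097922-109098117 (plus strand): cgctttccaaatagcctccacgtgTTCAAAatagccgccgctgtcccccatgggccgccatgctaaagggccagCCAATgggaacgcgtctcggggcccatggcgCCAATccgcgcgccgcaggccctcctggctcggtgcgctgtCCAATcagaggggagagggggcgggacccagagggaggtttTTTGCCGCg
PMS2 chr7:6009126-6009244 (minus strand): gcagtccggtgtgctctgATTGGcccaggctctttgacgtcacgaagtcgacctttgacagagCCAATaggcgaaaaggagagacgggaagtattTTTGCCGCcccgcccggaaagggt
ERCC6 chr10:49539539-49539788 (minus strand): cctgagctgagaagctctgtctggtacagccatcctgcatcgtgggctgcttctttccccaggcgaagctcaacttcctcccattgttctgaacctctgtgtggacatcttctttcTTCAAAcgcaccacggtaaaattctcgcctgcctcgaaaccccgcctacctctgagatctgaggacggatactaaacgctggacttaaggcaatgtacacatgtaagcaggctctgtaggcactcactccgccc
The MSH3 site holds 2 E2F matches that overlap, 1 on each strand. The UNG stretch carries 1 E2F match, 3 CCAAT matches and TTTGAA on the opposite strand, the PMS2 stretch 1 E2F match with CCAAT letters on each strand, and the ERCC6 stretch TTTGAA on the opposite strand and no E2F letters. These matches describe letters in a window. No binding was measured. This set of stretches was chosen after the members' values were seen.

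Total counts per library lay between 8114892 and 11769061. Gene levels are given as CPM, counts scaled to library size by the TMM method. The floor of 3 counts, which covers counting error only, and the marker sums below were taken over raw library totals, without the TMM factor, and are called raw CPM. The floor equals 0.255 to 0.370 raw CPM. Libraries of 1 group correlated at Spearman 0.986 to 0.99 across genes. XPO1, the gene of the drug's target, rose in both lines: its level was 443 ± 22.5 CPM with vehicle and 683 ± 8.76 CPM with selinexor in OCI-AML2, and 380.0 ± 13.4 and 601 ± 23.9 CPM in MOLM-13 (SD, n = 3, as for all means here). Of 8 myeloid markers, 7 (CD33, SPI1, MPO, CEBPA, LYZ, CSF3R and FLT3) reached 5 CPM (the mean of a group) in both lines. The summed level of the 8 was 2818 to 3003 raw CPM with vehicle and 10926 to 11225 raw CPM with selinexor in OCI-AML2, and 1293 to 1331 raw CPM against 2934 to 2974 raw CPM in MOLM-13. Most of the OCI-AML2 rise was in LYZ, the lysozyme gene (1735 ± 106 and 9580 ± 146 CPM), while MPO, the myeloperoxidase gene, fell there (log2 -0.53, adjusted p 0.0025) and CD33 had a change of 0.00065 (adjusted p 0.99). In MOLM-13 all 7 rose. Among markers of T, B and NK cells, only NKG7 of 7 reached 5 CPM, with list sums of 11.4 to 19.0 raw CPM (OCI-AML2) and 12.7 to 15.8 raw CPM (MOLM-13). Erythroid marker sums stayed at or below 0.490 raw CPM and fibroblast marker sums at or below 2.34 raw CPM. Of 4 epithelial markers, KRT8 and KRT18 reached 5 CPM in MOLM-13 only, where the list's sum was 12.2 to 12.5 raw CPM with vehicle and 31.6 to 39.1 raw CPM with selinexor. The part of these shifts in the repair genes' changes was not tested.

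The members' share of all counts was lower with selinexor. Together they held 0.450 to 0.464% of all counts in the OCI-AML2 vehicle libraries and 0.342 to 0.351% in the selinexor libraries. In MOLM-13 the share was 0.413 to 0.422% with vehicle and 0.333 to 0.335% with selinexor. Neither line's groups overlapped. A lower share can come from fewer cells that express a gene, less of its RNA per cell or more RNA of other genes. Bulk RNA cannot tell these apart. Most of the members' counts came from APEX1, PARP1, XRCC5, XRCC6 and PRKDC, which held 69.6 to 72.4% of them in OCI-AML2 and 68.3 to 69.6% in MOLM-13.

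Compared per kilobase of exon (RPKM from GENCODE 29 exon lengths), the members' levels with vehicle were spread widely. APEX1, the main enzyme that cuts the backbone at sites without a base, stood highest, at 257 RPKM in OCI-AML2 and 227 RPKM in MOLM-13. XRCC6 followed at 219 and 201 RPKM, then PARP1 at 112 and 91.3 RPKM and XRCC5 at 112 and 104 RPKM. XRCC6 and XRCC5 encode the Ku70 and Ku80 subunits of the ring that first binds a broken end. The lowest tested members were ERCC5 at 0.4998 RPKM in OCI-AML2 and ERCC4 at 0.827 RPKM in MOLM-13, which encode nucleases of nucleotide excision repair. Across the 29 members with a value in both lines, the order of the levels was alike (Spearman 0.95, a description over genes, which are not independent replicates).

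**Figure D1:**
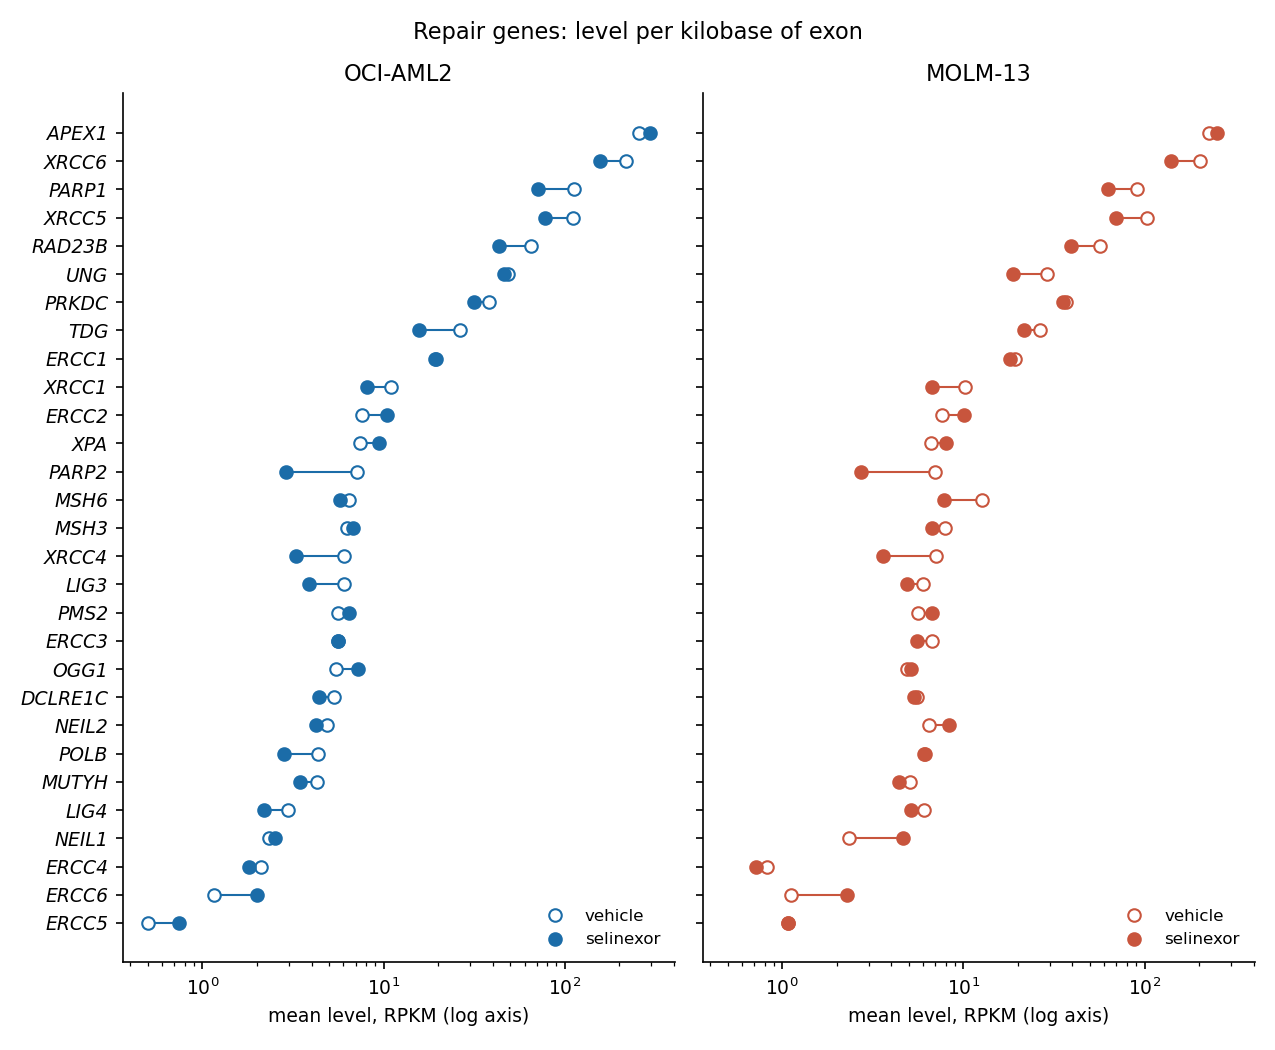
Mean level of each member per kilobase of exon (RPKM, log axis) with vehicle (open) and selinexor (filled), OCI-AML2 left and MOLM-13 right, members ordered by their OCI-AML2 vehicle level and joined by a line. APEX1 is highest in both lines (257 and 227 RPKM), and PARP2 and XRCC4 lie to the left of their vehicle level in both.

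The question put to each line was which repair genes differed between selinexor and vehicle, and whether pathways differed in direction. A gene was called where edgeR's quasi-likelihood test gave a Benjamini-Hochberg adjusted p under 0.05 over all genes tested in that line. Of the 29 members tested in each line, 6 rose and 15 fell in OCI-AML2, and 6 rose and 14 fell in MOLM-13. In OCI-AML2, 31.3% of all tested genes rose and 31.8% fell. The MOLM-13 shares were 31.8% for rises and 31.8% for falls. The median log2 change of the members was -0.21 in each line, against -0.0016 (OCI-AML2) and 0.0091 (MOLM-13) over all genes. The selinexor and vehicle libraries did not overlap for 20 of 29 members in OCI-AML2 and 22 of 29 in MOLM-13, beside 66.3% and 65.5% of all genes tested, so the members' shares were near those of all genes.

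The pathways differed in their counts. Over all tested genes, 31.3% rose and 31.8% fell in OCI-AML2, and 31.8% rose and 31.8% fell in MOLM-13. All 6 tested end-joining members fell in OCI-AML2 and 4 of 6 fell in MOLM-13, with no rise in either line. Of 12 base excision members, 7 fell and 2 rose in OCI-AML2, and 6 fell and 3 rose in MOLM-13. Of 8 nucleotide excision members, 4 rose and 1 fell in OCI-AML2, and in MOLM-13 2 rose and 2 fell. Of 3 mismatch repair members, 1 fell in OCI-AML2, and in MOLM-13 2 fell and 1 rose. Some of these calls were lost under alternatives given with those genes. In OCI-AML2 these were ERCC5 and XPA among the 4 nucleotide excision rises, and MSH6, MUTYH, DCLRE1C and LIG4 among the falls. In MOLM-13 they were the falls of MSH3 and LIG4 and the rise of PMS2. The median log2 changes in OCI-AML2 were -0.46 for end joining, -0.38 for base excision, 0.17 for nucleotide excision and 0.11 for mismatch repair. In MOLM-13 they were -0.38, -0.25, -0.05 and -0.24 in the same order. With 3 to 12 members each, these are descriptions of the lists and were not tested against each other.

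LIG3, LIG4, MSH6, PARP1, PARP2, RAD23B, TDG, XRCC1, XRCC4, XRCC5 and XRCC6 fell in both lines, which is 11 of 29 members where 23.6% of the 11202 genes tested in both fell in both. APEX1, ERCC2 and ERCC6 rose in both, 3 of 29 where 21.0% of all did. ERCC5, OGG1 and XPA rose in OCI-AML2 only by the call, and DCLRE1C, MUTYH, POLB and PRKDC fell there only. NEIL1, NEIL2 and PMS2 rose, and ERCC3, MSH3 and UNG fell, by the call in MOLM-13 only. ERCC1 and ERCC4 were called in neither line, and none was called in opposite directions. Some of these splits moved with the processing. Of the 11 that fell in both, MSH6 lost its OCI-AML2 call under 6 of 11 alternatives. LIG4 lost its call under 3 alternatives in OCI-AML2 and under 4 in MOLM-13. Calls made in 1 line only were also lost somewhere for DCLRE1C, ERCC5, MSH3, MUTYH, PMS2 and XPA. The other line's value was called for PRKDC in MOLM-13 with no filter on low counts (-0.08, adjusted p 0.037), for MUTYH in MOLM-13 without vehicle library 2 (-0.28, adjusted p 0.0497), for XPA in MOLM-13 under 2 alternatives and for PMS2 in OCI-AML2 under 3, as given with those genes. ERCC4 was called in OCI-AML2 without vehicle library 2 (-0.29, adjusted p 0.037). Whether a change differed between the lines was tested separately and is given further down.

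**Figure D2:**
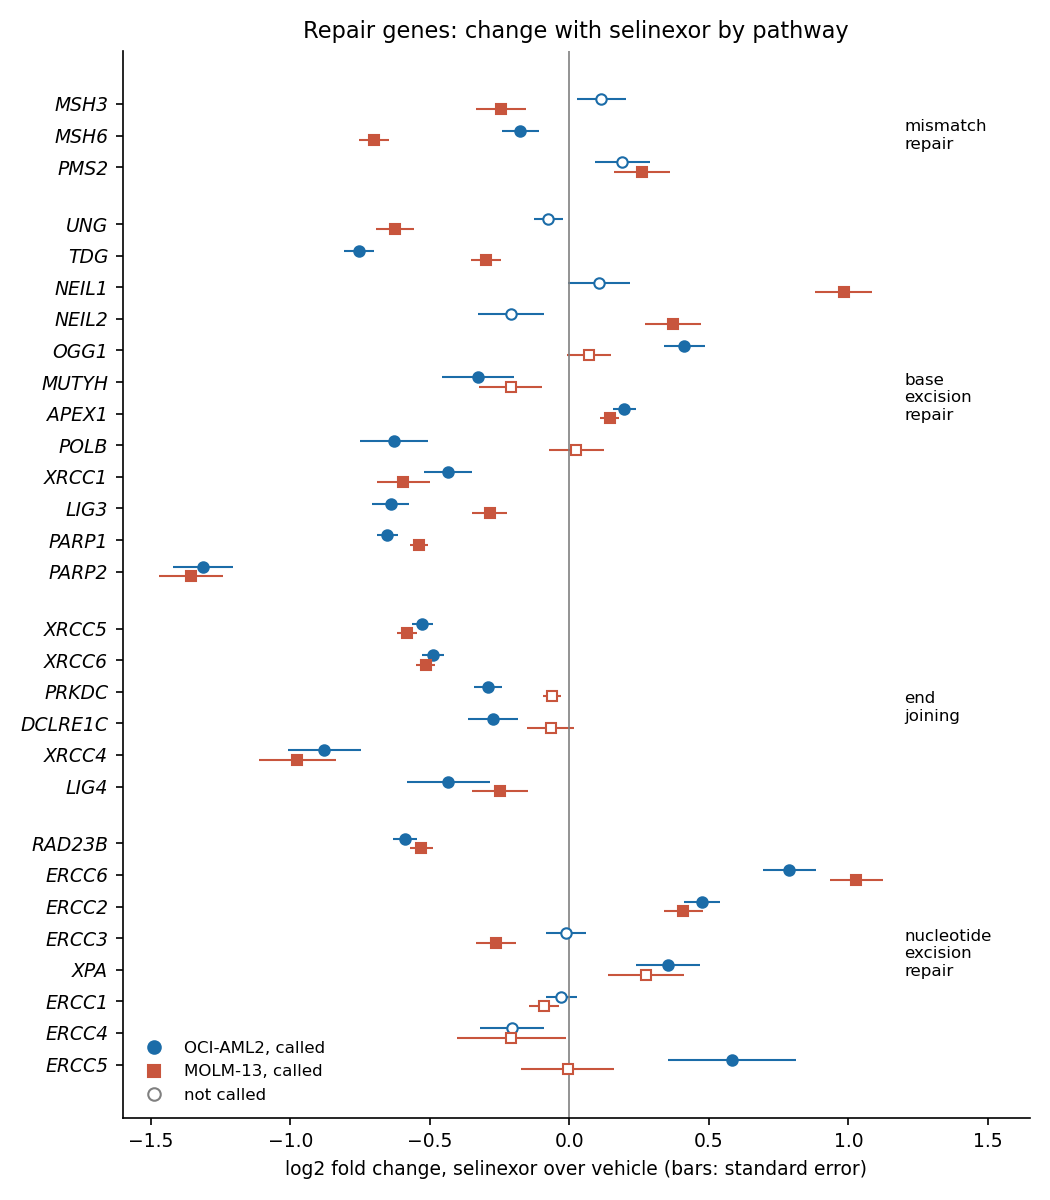
Log2 fold change of selinexor over vehicle with its standard error for the 29 tested members, grouped by pathway, in OCI-AML2 (circles) and MOLM-13 (squares), with open symbols for values not called at an adjusted p of 0.05. PARP2 lies farthest to the left in both lines (-1.31 and -1.36), ERCC6 to the right in both (0.79 and 1.03), and the end-joining members lie left of 0.

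Base excision repair begins with glycosylases that each remove particular bases, and the calls of the 6 went in both directions. In OCI-AML2 1 rose and 2 fell, and in MOLM-13 2 rose and 2 fell. Over all tested genes, 31.3% rose and 31.8% fell in OCI-AML2, and 31.8% did each in MOLM-13. The counts of the 6 were not tested against these shares. TDG, which removes thymine or modified cytosine opposite guanine, fell in both lines. In OCI-AML2 it was at 129 ± 3.67 CPM with vehicle and 76.6 ± 2.30 CPM with selinexor (log2 -0.75 ± 0.054 SE, adjusted p 4.9e-16), and in MOLM-13 at 130.0 ± 12.7 and 106 ± 2.20 CPM (log2 -0.30 ± 0.053, adjusted p 7.7e-07). OGG1, which removes oxidised guanine, rose in OCI-AML2 from 47.5 ± 3.81 to 63.4 ± 5.75 CPM (log2 0.41, adjusted p 4.8e-06), while in MOLM-13 it was 42.6 ± 1.86 with vehicle and 44.8 ± 2.93 CPM with selinexor (adjusted p 0.44). OGG1 shares 2180 exonic bases with CAMK1 on the opposite strand, and the libraries kept no strand. CAMK1 itself rose by 0.89 (log2) in OCI-AML2 and had a change of -0.07 in MOLM-13, so the reads of the pair cannot be told apart. MUTYH, which removes adenine paired with oxidised guanine, fell in OCI-AML2 (log2 -0.33, adjusted p 0.024) and had a log2 change of -0.21 in MOLM-13 (adjusted p 0.0997). The MUTYH call in OCI-AML2 was lost without vehicle library 3 (-0.22) or selinexor library 3 (-0.20), under upper quartile scaling (-0.27, adjusted p 0.060) and under DESeq2 (-0.33, adjusted p 0.10).

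UNG removes uracil from DNA and lies on chromosome 12 (GRCh38, 109097574 to 109110992, plus strand). Its level in the OCI-AML2 vehicle libraries was 123, 130.1 and 123 CPM, and in the selinexor libraries 110.1, 124 and 123 CPM. In MOLM-13 it was 74.9, 74.8 and 74.0 CPM with vehicle and 47.9, 50.7 and 46.4 CPM with selinexor. The groups overlapped in OCI-AML2 and stood well apart in MOLM-13. The log2 change was -0.07 ± 0.053 in OCI-AML2 (adjusted p 0.22) and -0.62 ± 0.067 in MOLM-13 (adjusted p 3.2e-14). UNG's promoter stretch, printed above, carries E2F letters, as do the windows of MSH3, MSH6, PMS2 and XRCC6. By the call in MOLM-13, UNG, MSH3, MSH6 and XRCC6 fell and PMS2 rose. In OCI-AML2 MSH6 and XRCC6 fell and the others were not called. A part of E2F in these changes was not tested.

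NEIL1 and NEIL2 encode glycosylases that act mainly on oxidised pyrimidines. NEIL1 (chromosome 15, 75346955 to 75357114, plus strand) measured 15.8, 16.2 and 16.8 CPM with vehicle and 17.9, 17.9 and 16.7 CPM with selinexor in OCI-AML2. In MOLM-13 it measured 15.6, 17.3 and 15.8 CPM with vehicle and 34.6, 32.1 and 29.5 CPM with selinexor. The 3 MOLM-13 selinexor libraries lay far above their controls, at 1.98 times on average (log2 0.98 ± 0.103, adjusted p 8.3e-15), and the OCI-AML2 groups overlapped (log2 0.11 ± 0.111, adjusted p 0.41). NEIL1 shares 1831 exonic bases with MAN2C1, a mannosidase gene on the opposite strand, whose own log2 change was 1.02 ± 0.058 in MOLM-13 and 0.19 ± 0.064 in OCI-AML2. Without strand, NEIL1 and MAN2C1 reads over these bases cannot be told apart.

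NEIL2 (chromosome 8, 11769639 to 11787346, plus strand) was at 16.1, 17.3 and 16.1 CPM with vehicle and 12.4, 15.6 and 14.7 CPM with selinexor in OCI-AML2 (log2 -0.21 ± 0.119, adjusted p 0.12). In MOLM-13 NEIL2 was at 21.0, 20.5 and 23.7 CPM with vehicle and 27.8, 29.5 and 27.0 CPM with selinexor (log2 0.37 ± 0.099, adjusted p 0.00069). In each line the groups were separate, with selinexor below vehicle in OCI-AML2, where the test made no call, and above it in MOLM-13. NEIL2 has no exonic overlap with another annotated gene.

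After the base is removed, APEX1 cuts the strand, POLB (DNA polymerase beta) fills the gap, and XRCC1 with LIG3 (DNA ligase 3) seals it. APEX1 rose in both lines by a small amount, log2 0.20 ± 0.041 in OCI-AML2 (485 ± 22.7 and 556 ± 19.0 CPM) and 0.15 ± 0.035 in MOLM-13 (427 ± 8.54 and 473 ± 12.6 CPM). POLB (chromosome 8, 42338454 to 42371808, plus strand) was at 16.5, 17.6 and 19.7 CPM with vehicle and 11.3, 12.3 and 11.3 CPM with selinexor in OCI-AML2. Its MOLM-13 values were 24.6, 26.2 and 23.6 CPM with vehicle and 24.9, 23.1 and 27.7 CPM with selinexor. The OCI-AML2 groups were separate (log2 -0.63 ± 0.122, adjusted p 2.0e-05), and the MOLM-13 groups overlapped (log2 0.03 ± 0.099, adjusted p 0.84). XRCC1, the scaffold of this step, fell by 0.44 (log2) in OCI-AML2 and by 0.59 in MOLM-13, from 38.2 ± 2.81 to 28.2 ± 0.722 CPM and from 35.1 ± 3.41 to 23.3 ± 0.754 CPM. Its ligase partner LIG3 fell by 0.64 (log2) in OCI-AML2, with 78.0 ± 2.60 CPM under vehicle and 49.97 ± 2.22 CPM under selinexor, and by 0.29 in MOLM-13, with 77.0 ± 3.29 and 63.1 ± 1.42 CPM. LIG3 shares 3754 exonic bases with RFFL on the opposite strand, which had a log2 change of 0.09 in OCI-AML2 (adjusted p 0.47) and rose by 0.36 in MOLM-13.

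PARP1 and PARP2 sense strand breaks and build poly(ADP-ribose) chains that recruit XRCC1, and PARP inhibitors act on both. PARP2 (chromosome 14, 20343582 to 20357905, plus strand) had the lowest log2 fold change of the members in both lines. It was at 28.96, 29.1 and 29.9 CPM with vehicle and 12.6, 12.1 and 10.7 CPM with selinexor in OCI-AML2, and at 28.9, 28.7 and 27.9 CPM against 11.3, 11.6 and 10.4 CPM in MOLM-13. The 6 vehicle libraries were nearly level across the lines, and all 6 selinexor libraries lay far below them. PARP2 was left at 0.402 times its vehicle level in OCI-AML2 (log2 -1.31 ± 0.107, adjusted p 2.3e-14) and at 0.391 times in MOLM-13 (log2 -1.36 ± 0.114, adjusted p 1.1e-19).

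PARP1 (chromosome 1, 226360691 to 226408079, minus strand) is the far more abundant of the pair. It was at 803, 817 and 790.5 CPM with vehicle and 510.0, 515 and 509.8 CPM with selinexor in OCI-AML2. In MOLM-13 PARP1 was at 653, 652 and 659 CPM with vehicle and 438, 462 and 451 CPM with selinexor. The groups stood apart in both lines, with log2 changes of -0.65 ± 0.038 (adjusted p 3.5e-19) and -0.54 ± 0.033 (adjusted p 4.8e-28). PARP1 thus kept 0.637 and 0.688 times its vehicle level.

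**Figure D3:**
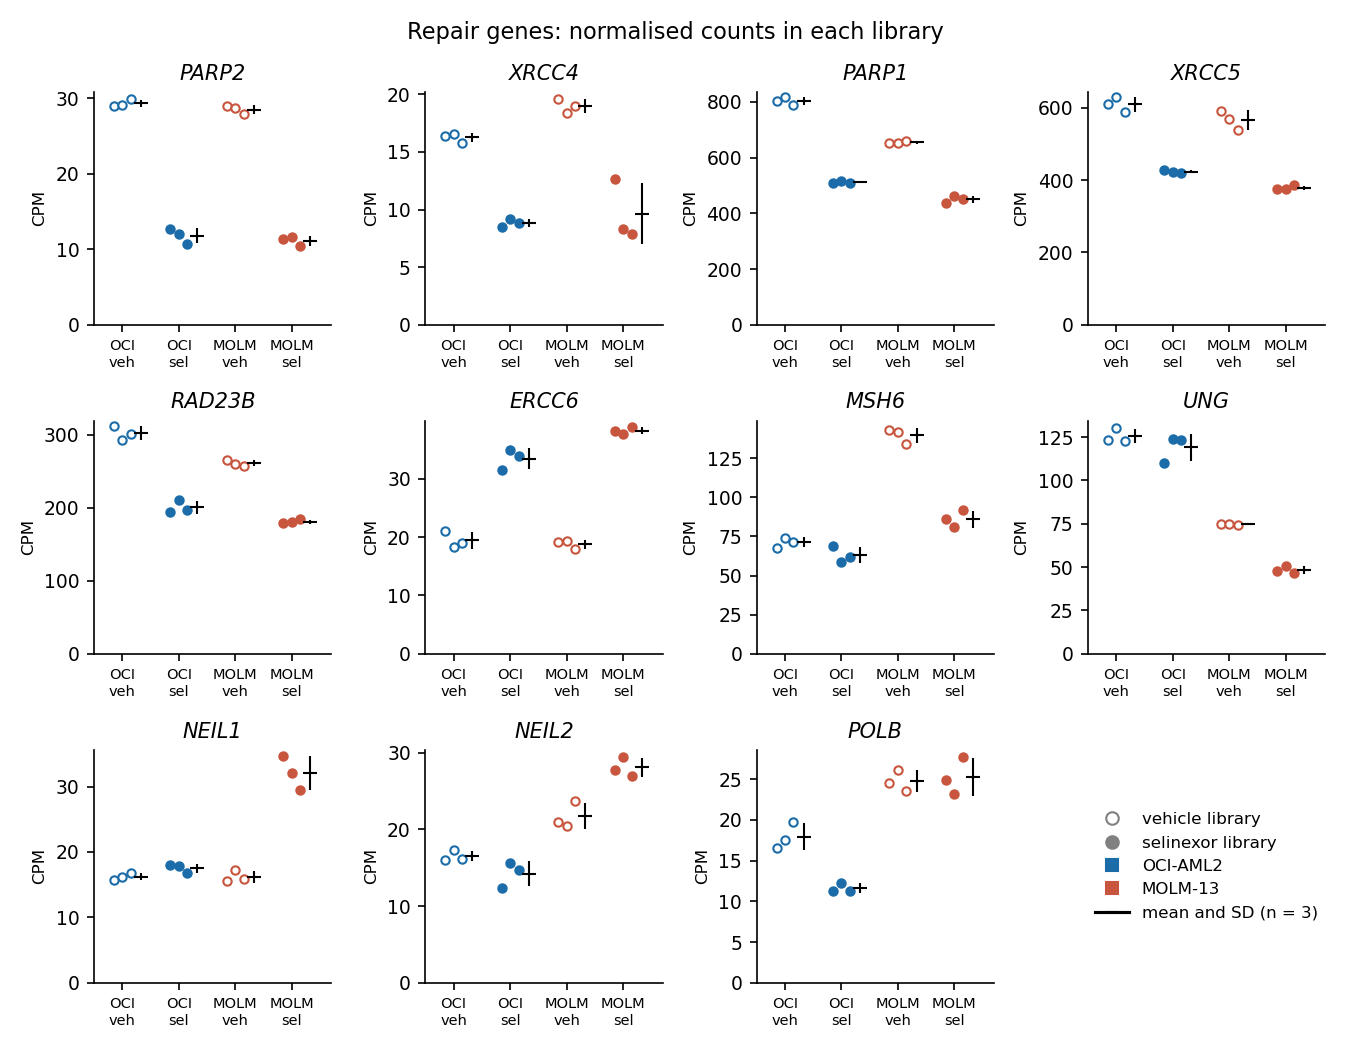
TMM-scaled CPM of 11 members in each of the 12 libraries, OCI-AML2 in blue and MOLM-13 in red, open points for vehicle and filled points for selinexor, with the mean and SD of 3 libraries in black and each axis starting at 0. In the upper panels the selinexor points lie apart from vehicle in both lines, and for UNG, NEIL1 and POLB they do so in 1 line.

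In end joining, the Ku ring of XRCC5 and XRCC6 holds the broken end and recruits the kinase encoded by PRKDC. XRCC5 (chromosome 2, 216107464 to 216206303, plus strand) was at 611, 629.8 and 589 CPM with vehicle and 428, 422 and 421 CPM with selinexor in OCI-AML2, and at 591, 569 and 537 CPM against 374, 374 and 386 CPM in MOLM-13. The groups were separate in both lines, by log2 -0.53 ± 0.039 (adjusted p 1.1e-15) and -0.58 ± 0.035 (adjusted p 9.0e-29). XRCC6 fell by almost the same amount, from 718 ± 28.4 to 512 ± 8.14 CPM and from 661 ± 10.5 to 463 ± 7.04 CPM (log2 -0.49 and -0.51). PRKDC, the catalytic subunit of the DNA-dependent kinase, fell in OCI-AML2 from 592 ± 39.5 to 484 ± 30.9 CPM (log2 -0.29, adjusted p 2.2e-05). In MOLM-13 PRKDC was at 568 ± 6.51 and 544 ± 11.9 CPM (log2 -0.06, adjusted p 0.093).

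DCLRE1C encodes Artemis, the nuclease that opens and trims ends. It fell in OCI-AML2 from 33.6 ± 1.01 to 27.9 ± 3.10 CPM (log2 -0.27, adjusted p 0.0078), a call lost without selinexor library 3 (-0.19), and was at 35.3 ± 0.421 and 33.7 ± 0.0902 CPM in MOLM-13 (adjusted p 0.51). XRCC4 and LIG4 form the ligase complex that closes the break. XRCC4 (chromosome 5, 83077498 to 83353787, plus strand) was at 16.4, 16.6 and 15.8 CPM with vehicle and 8.49, 9.17 and 8.83 CPM with selinexor in OCI-AML2. In MOLM-13 XRCC4 was at 19.6, 18.4 and 19.0 CPM with vehicle and 12.7, 8.34 and 7.87 CPM with selinexor. The groups did not overlap in either line, and selinexor library 1 of MOLM-13 lay above the other two. The log2 changes were -0.88 ± 0.130 (adjusted p 1.5e-07) and -0.98 ± 0.138 (adjusted p 1.2e-09).

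LIG4 fell by 0.43 (log2, adjusted p 0.011) in OCI-AML2, where the libraries overlapped at 13.1 ± 2.56 and 9.64 ± 1.11 CPM. In MOLM-13 it fell by 0.25 (adjusted p 0.027), with 26.8 ± 3.34 CPM under vehicle and 22.5 ± 0.125 CPM under selinexor. The OCI-AML2 call was lost without vehicle library 2 (-0.34) or selinexor library 1 (-0.35), and the MOLM-13 call without vehicle library 1 (-0.15) or selinexor library 2 (-0.25). Under DESeq2 both were lost (-0.44, adjusted p 0.054, and -0.26, adjusted p 0.10), and under upper quartile scaling the MOLM-13 call was (-0.18, adjusted p 0.12). NHEJ1, which encodes the filament protein XLF, had no row in the OCI-AML2 table and counts of 0, 1, 1 with vehicle and 0, 1, 0 with selinexor in MOLM-13, below the floor of 3 counts, so it was not tested. In GENCODE 29 it shares 2034 exonic bases with AC068946.1 on the same strand, and how the authors' counting treated reads common to overlapping genes is not given in the sources used here.

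Nucleotide excision repair starts either with damage found anywhere in the genome, where RAD23B stabilises the XPC sensor, or with a stalled RNA polymerase, which ERCC6 (CSB) recognises. RAD23B and ERCC6 moved in opposite directions. RAD23B (chromosome 9, 107283137 to 107332194, plus strand) was at 312, 293 and 302 CPM with vehicle and 194, 211 and 197 CPM with selinexor in OCI-AML2, and at 266, 260.3 and 257 CPM against 179, 180.0 and 184 CPM in MOLM-13. The groups were separate in both lines, by log2 -0.59 ± 0.043 (adjusted p 6.5e-16) and -0.53 ± 0.041 (adjusted p 4.9e-22).

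ERCC6 (chromosome 10, 49455368 to 49539538, minus strand) was at 21.1, 18.3 and 19.0 CPM with vehicle and 31.5, 34.9 and 34.0 CPM with selinexor in OCI-AML2. In MOLM-13 ERCC6 was at 19.1, 19.3 and 17.9 CPM with vehicle and 38.2, 37.6 and 38.9 CPM with selinexor. All selinexor libraries stood above all vehicle libraries, by 1.73 times (log2 0.79 ± 0.095, adjusted p 1.2e-09) and 2.04 times (log2 1.03 ± 0.095, adjusted p 1.8e-17). ERCC2 and ERCC3 encode XPD and XPB, the helicases of TFIIH that open the helix around the lesion. ERCC2 rose in both lines, from 48.7 ± 0.422 to 67.7 ± 2.53 CPM (log2 0.48) and from 49.2 ± 1.36 to 65.2 ± 4.98 CPM (log2 0.41). ERCC3 was at 47.2 ± 1.32 and 46.9 ± 3.04 CPM in OCI-AML2 (adjusted p 0.91) and fell from 56.2 ± 3.07 to 46.8 ± 3.18 CPM in MOLM-13 (log2 -0.26, adjusted p 0.0011).

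XPA, which checks the opened site, rose in OCI-AML2 from 13.6 ± 0.383 to 17.4 ± 0.263 CPM (log2 0.35, adjusted p 0.0073) and was at 12.1 ± 1.67 and 14.7 ± 1.39 CPM in MOLM-13 (log2 0.27, adjusted p 0.071). The XPA call in OCI-AML2 was lost under DESeq2 (0.35, adjusted p 0.052), and the MOLM-13 value was called under upper quartile scaling (0.34, adjusted p 0.023) and without vehicle library 3 (0.39, adjusted p 0.025). The nucleases ERCC1 with ERCC4 (XPF) cut before the lesion and ERCC5 (XPG) after it. ERCC1 had log2 changes of -0.03 and -0.09 and ERCC4 of -0.21 and -0.21, none of them called. ERCC1 and ERCC4 share 1593 and 2174 exonic bases with CD3EAP and AC010401.1 on the opposite strand. ERCC5 was at 4.84, 2.41 and 5.11 CPM with vehicle and 6.84, 5.50 and 5.99 CPM with selinexor in OCI-AML2, a rise of 0.58 ± 0.230 (log2, adjusted p 0.026) that rested on the low vehicle library 2. Without that library the change was 0.29 (adjusted p 0.26), and the call was also lost without selinexor library 1 (0.50) or 3 (0.60) and under DESeq2 (0.57, adjusted p 0.11). In MOLM-13 the ERCC5 change was -0.01, and its exons are shared with the readthrough gene BIVM-ERCC5 over 5213 bases.

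In mismatch repair, MSH6 and MSH3 are the alternative partners that give the recognition dimer its preference, MSH6 for single mismatches and MSH3 for longer loops. MSH6 (chromosome 2, 47695530 to 47810101, plus strand) was at 67.8, 74.1 and 71.6 CPM with vehicle and 69.1, 58.9 and 61.6 CPM with selinexor in OCI-AML2. In MOLM-13 MSH6 was at 143, 142 and 134 CPM with vehicle and 86.0, 80.7 and 91.6 CPM with selinexor. The OCI-AML2 groups overlapped and the MOLM-13 groups stood far apart, with log2 changes of -0.17 ± 0.066 (adjusted p 0.020) and -0.70 ± 0.053 (adjusted p 2.6e-22). The OCI-AML2 call for MSH6 was lost without vehicle library 2 (-0.15), selinexor library 2 (-0.12) or selinexor library 3 (-0.15), under upper quartile scaling (-0.12), under DESeq2 (-0.18) and in the fit of all 12 libraries (-0.13). MSH6 shares 1785 exonic bases with FBXO11 on the opposite strand, which was called in neither line (log2 -0.06 and -0.14).

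MSH3 was at 29.4 ± 1.01 and 31.8 ± 2.63 CPM in OCI-AML2 (adjusted p 0.26) and fell from 37.3 ± 1.19 to 31.6 ± 5.61 CPM in MOLM-13 (log2 -0.24, adjusted p 0.014), where the libraries overlapped. The MSH3 call was lost without selinexor library 1 (-0.14) or 2 (-0.21), under upper quartile scaling (-0.17) and under DESeq2 (-0.25). PMS2, a nicking endonuclease of this pathway, had log2 changes of 0.19 (adjusted p 0.091) and 0.26 (adjusted p 0.019). PMS2 has near-identical pseudogene copies, so its counts are uncertain, and its MOLM-13 call was lost without vehicle library 2 (0.23) or 3 (0.21) or selinexor library 1 (0.24) or 2 (0.25) and under DESeq2 (0.25). The OCI-AML2 value of PMS2 was called under upper quartile scaling (0.24, adjusted p 0.030), in the fit of all 12 libraries (0.23, adjusted p 0.035) and without selinexor library 2 (0.27, adjusted p 0.034).

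Which members changed differently in the lines was tested as a line-by-treatment interaction in the fit of all 12 libraries. The change was higher in MOLM-13 for 6 of 29 members and lower for 5, where 11.1% of all genes were higher and 19.0% lower. Over all genes, 1388 were higher and 2380 lower, and with upper quartile scaling 1828 and 1890. NEIL1 (difference 0.83 ± 0.152, adjusted p 8.1e-06), POLB (0.60 ± 0.158, adjusted p 0.0016) and NEIL2 (0.53 ± 0.155, adjusted p 0.0052) differed most in the first direction, followed by TDG (0.41), LIG3 (0.31) and PRKDC (0.18). UNG (-0.60 ± 0.084, adjusted p 9.1e-09) and MSH6 (-0.57 ± 0.085, adjusted p 4.9e-08) differed most in the other, followed by MSH3 (-0.41), OGG1 (-0.39) and ERCC3 (-0.30). Of these 11 members, 7 belong to base excision repair, the largest list, with 12 of the 29 tested members. The MSH3 call was lost without OCI-AML2 vehicle library 1 (-0.31) or 2 (-0.29), OCI-AML2 selinexor library 2 (-0.35), MOLM-13 vehicle library 2 (-0.33) or MOLM-13 selinexor library 1 (-0.30), and under DESeq2 (-0.37, adjusted p 0.073). OGG1 lost its call without OCI-AML2 vehicle library 1 (-0.24) or MOLM-13 vehicle library 2 (-0.26), and PRKDC without OCI-AML2 selinexor library 3 (0.13). ERCC3 lost its call without any of the 3 OCI-AML2 vehicle libraries, OCI-AML2 selinexor library 1, MOLM-13 vehicle library 2 or 3 or MOLM-13 selinexor library 1 (-0.19 to -0.28), and also under upper quartile scaling (-0.24, adjusted p 0.068) and DESeq2 (-0.27, adjusted p 0.096). PARP2, XRCC4, ERCC6 and RAD23B had differences of -0.09 ± 0.160, -0.15 ± 0.198, 0.19 ± 0.134 and 0.01 ± 0.060, none of them called.

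**Figure D4:**
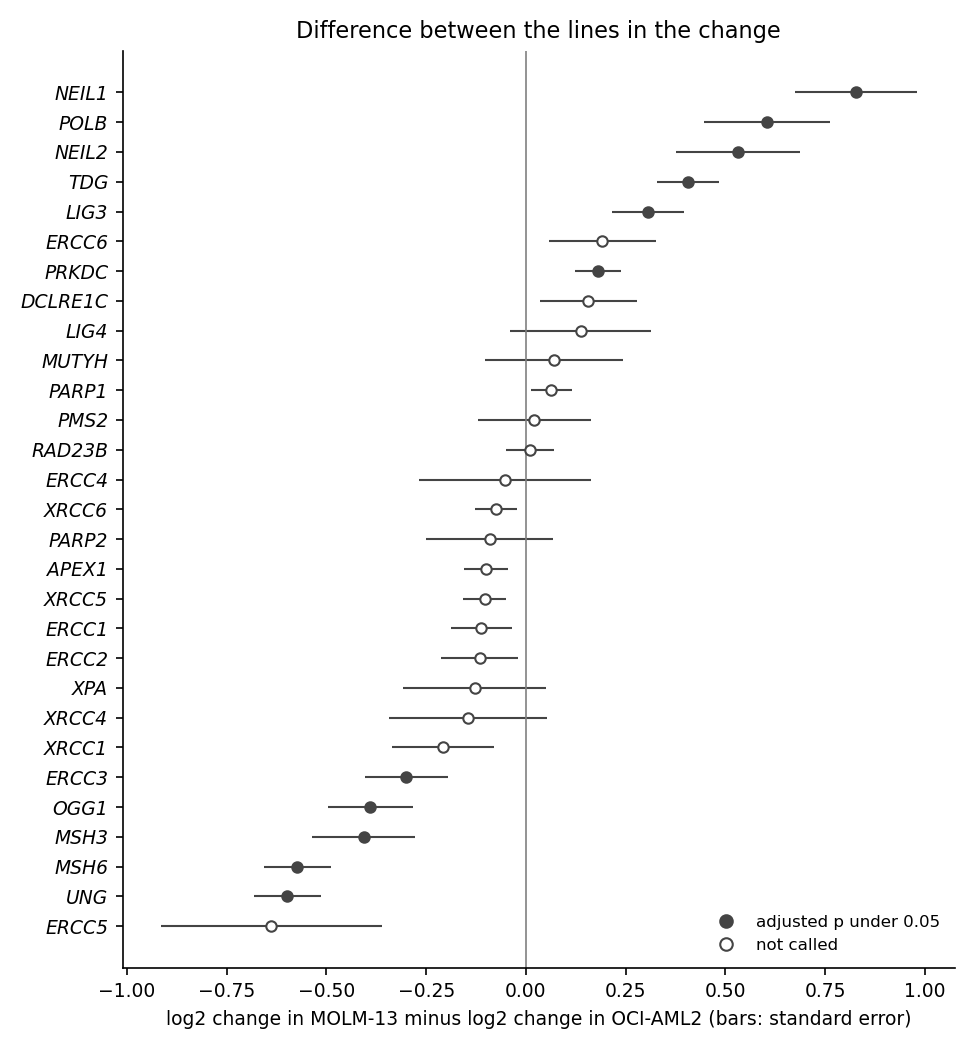
Log2 change with selinexor in MOLM-13 minus that in OCI-AML2 for the 29 tested members, with standard errors, sorted, filled where the interaction had an adjusted p under 0.05. NEIL1 (0.83) and POLB (0.60) lie at the top, UNG (-0.60) and MSH6 (-0.57) near the bottom, and ERCC5 (-0.64) has the widest error and is not called.

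With vehicle, 8 of 29 members were higher in MOLM-13 and 6 lower, beside 35.0% and 36.2% of all genes. On the scale of the 12-library fit, MSH6 was at 69.9 ± 3.08 CPM in OCI-AML2 and 140.7 ± 4.73 CPM in MOLM-13 (log2 1.01, adjusted p 7.0e-29). LIG4 was at 12.8 ± 2.52 and 27.0 ± 3.35 CPM (log2 1.07) and ERCC5 at 4.05 ± 1.46 and 8.98 ± 0.442 CPM (log2 1.17). UNG ran the other way, at 123 ± 4.0 and 75.1 ± 0.464 CPM (log2 -0.71), as did ERCC4 at 17.4 ± 1.56 and 7.05 ± 0.514 CPM (log2 -1.30). POLB (0.50), NEIL2 (0.43), MSH3 (0.38), ERCC3 (0.29) and MUTYH (0.28) were also higher in MOLM-13, and PARP1 (-0.26), RAD23B (-0.17), APEX1 (-0.15) and XRCC6 (-0.08) lower. The MUTYH call was lost without OCI-AML2 vehicle library 1 (0.19) or 2 (0.19) or MOLM-13 vehicle library 1 (0.27) or 3 (0.22) and under DESeq2 (0.28), and the XRCC6 call without MOLM-13 vehicle library 1 or 3 (-0.08 each), under upper quartile scaling (-0.06) and with no filter (-0.08). MSH6 thus started higher in MOLM-13 and had the larger fall there. UNG started lower in MOLM-13 and fell by the call only there (log2 -0.62, and -0.07 in OCI-AML2). The vehicle level of FBXO11, which shares 1785 exonic bases with MSH6, was 26.6 ± 2.76 CPM in OCI-AML2 and 59.7 ± 1.58 CPM in MOLM-13. These FBXO11 values were scaled within each line. Without strand, MSH6 and FBXO11 reads over the shared bases cannot be told apart. ERCC4 and ERCC5 share 2174 and 5213 exonic bases with AC010401.1 and BIVM-ERCC5.

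Ratios of partner genes within a library do not depend on scaling. For 6 pairs in each line, 12 comparisons in all, an exact two-sided permutation test of 3 against 3 libraries cannot go below p 0.1. The log2 ratio of PARP1 over PARP2 lay between 4.73 and 4.81 with vehicle and between 5.34 and 5.57 with selinexor in OCI-AML2, a difference of 0.66, and the difference in MOLM-13 was 0.82. For XRCC4 over LIG4 the differences were -0.45 and -0.77, and for MSH6 over MSH3 -0.45 in MOLM-13, all without overlap. In OCI-AML2 the MSH6 over MSH3 groups overlapped, with a difference of -0.28 (exact permutation p 0.3). XRCC1 over LIG3 had differences of 0.21 in OCI-AML2 and -0.30 in MOLM-13, with groups that did not overlap in either line. LIG3 shares 3754 exonic bases with opposite-strand RFFL, whose log2 changes were 0.09 in OCI-AML2 and 0.36 in MOLM-13. Without strand, LIG3 and RFFL reads over these bases cannot be told apart, and the part of RFFL in this ratio was not tested. The Ku ratio XRCC5 over XRCC6 differed by -0.04 and -0.07, the latter with overlap, and ERCC1 over ERCC4 by 0.18 and 0.11, both with overlap. Each pair whose groups did not overlap had the smallest exact p the design allows, 0.1, or 0.15 after Benjamini-Hochberg adjustment over the 12, so none passed 0.05.

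**Figure D5:**
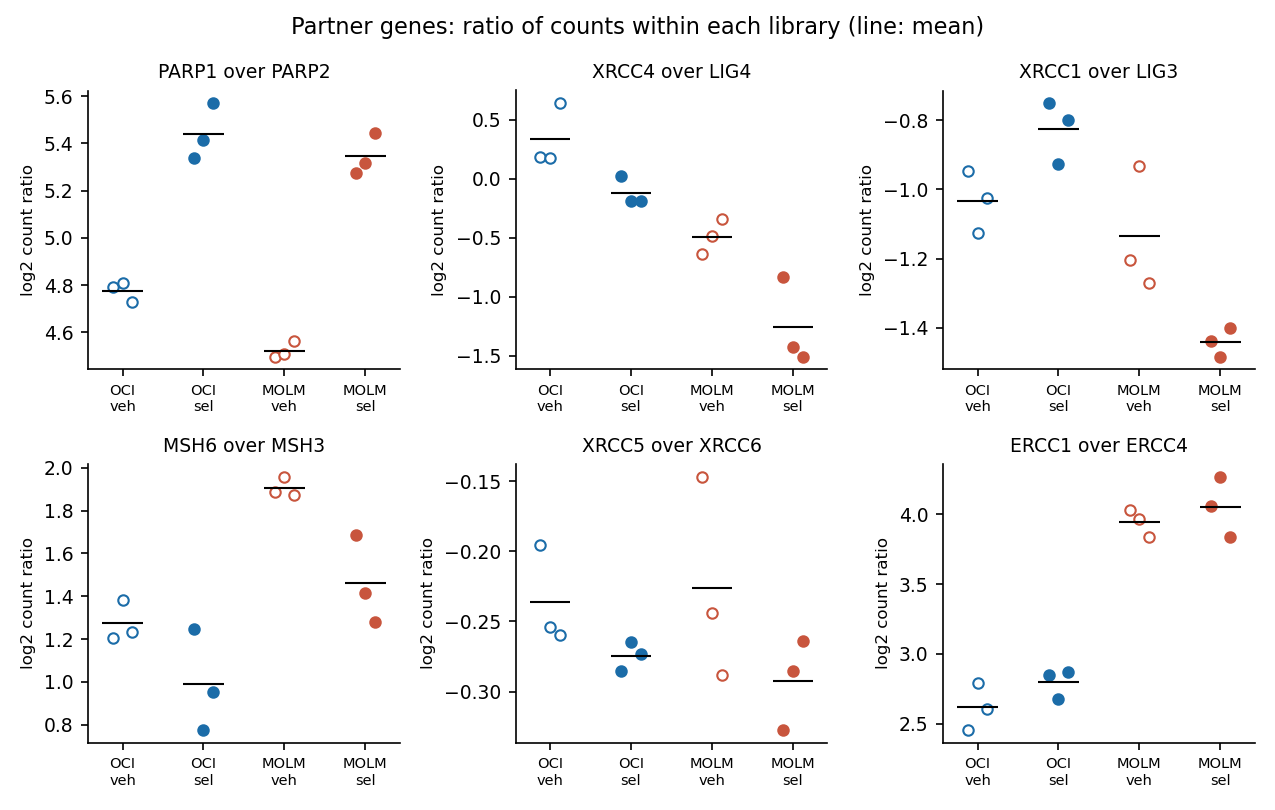
Log2 ratio of the counts of 2 partner genes in each library, with vehicle (open) and selinexor (filled), OCI-AML2 in blue and MOLM-13 in red, horizontal lines for means of 3 libraries, and an axis of its own for each pair. PARP1 over PARP2 is higher with selinexor in both lines (by 0.66 and 0.82), and XRCC1 over LIG3 differs by 0.21 in OCI-AML2 and by -0.30 in MOLM-13. LIG3 shares exonic bases with RFFL on the opposite strand.

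Other genes of the same pathways were read from a list of 55, of which 53 were tested in OCI-AML2 and 54 in MOLM-13. Rises numbered 9 and falls 28 in OCI-AML2, and 9 and 27 in MOLM-13. Over all tested genes, the rises were 31.3% and the falls 31.8% in OCI-AML2, and 31.8% each in MOLM-13. Partners listed under mismatch repair, most of them shared with the replication fork, fell most often. In each line 14 of 17 fell and 1 rose, at medians of -0.46 and -0.75. PCNA, LIG1 and the RFC, RPA and POLD subunit genes were counted in this list only. PMS1 and MLH3 were called in neither line (log2 -0.03 and 0.16 in OCI-AML2). EXO1, the nuclease that removes the wrong strand, fell by 0.87 (log2) in OCI-AML2 and by 1.60 in MOLM-13. PCNA, the sliding clamp, fell by 0.54 and 1.12, the clamp loader subunit gene RFC3 by 1.06 and 1.38, and DNA ligase gene LIG1 by 0.51 and 1.35.

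Among 12 further base excision genes, 7 fell in each line, and 3 rose in OCI-AML2 and 2 in MOLM-13. Beside this list and that of end joining, 31.8% of all genes fell in each line. HMGB1, an abundant chromatin protein gene also linked to this pathway, fell by 1.42 and 1.83 (log2), from 949 ± 23.4 to 355 ± 7.65 CPM in the OCI-AML2 line and 1302 ± 22.9 to 366 ± 12.1 CPM in the MOLM-13 line. The flap nuclease gene FEN1 fell by 0.62 and 1.22 (log2), and the glycosylase genes NTHL1 by 0.63 and 0.69 and NEIL3 by 0.44 and 0.83. In end joining, 4 of 9 further genes fell in OCI-AML2 and 5 of 10 in MOLM-13, with 2 and 3 that rose. PAXX, a partner of Ku, fell by 0.86 and 1.13, CYREN, a regulator of end joining, by 0.56 and 0.65, RIF1, which protects ends from trimming, by 0.37 and 0.41, and POLQ, the polymerase of the alternative end-joining route, by 0.74 and 1.04.

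Among 15 tested further genes of nucleotide excision repair, 3 rose and 3 fell in OCI-AML2, beside 31.3% and 31.8% of all genes. In MOLM-13 3 rose and 1 fell, beside 31.8% of all genes in each direction. The damage sensor genes XPC and DDB2 rose, XPC by 0.63 and 0.95 (log2) and DDB2 by 0.44 and 0.20. The TFIIH subunit gene GTF2H5 rose by 0.65 in OCI-AML2 and had a change of -0.04 in MOLM-13 (adjusted p 0.65).

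A list of 20 S phase genes was measured beside these falls. All 20 fell in both lines, with medians of -0.70 in OCI-AML2 and -1.37 in MOLM-13. Of all genes tested in both lines, 23.6% fell in both. The fall was larger in MOLM-13 by the interaction test for 19 of the 20. Of the 11 repair members with a called difference, the change was lower in MOLM-13 for 5 (UNG, MSH6, MSH3, OGG1 and ERCC3) and higher there for 6 (NEIL1, POLB, NEIL2, TDG, LIG3 and PRKDC). The calls of MSH3, OGG1, ERCC3 and PRKDC were lost under at least 1 alternative. Over all genes, the change was lower in MOLM-13 for 19.0% and higher for 11.1%. The part of S phase content in these changes was not tested.

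The authors' deposited table for MOLM-13 gives log2 fold changes of vehicle over selinexor. With the sign turned, 29 of 29 members had the same sign in the authors' deposited table as in the values here, and the largest difference was 0.0155 (log2), for LIG4. Both rest on the same MOLM-13 libraries, so the match concerns the processing and is not independent evidence. DESeq2 run here gave the sign-turned deposited values of MSH3 (-0.255), PMS2 (0.245) and LIG4 (-0.263).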

How the data were processed

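The labels' protocols give poly(A)-selected, non-strand-specific libraries, and alignment to hg38 with STAR and work in R 3.6.1 with DESeq2 come from the submitters' processing notes. For the counting tool and its annotation nothing is stated in the sources used here. As deposited by the authors, the tables hold whole-number counts per gene symbol for each line, and for MOLM-13 a table of log2 fold changes. The line was taken from the initial of each table and the treatment from the letter heading each column. Since the headers hold no replicate numbers, libraries are numbered by column, as names only.

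From the counts, edgeR 4.0.16 in R 4.3.3 was run with TMM scaling, filterByExpr (minimum count 10, minimum total 15), robust quasi-likelihood F tests and Benjamini-Hochberg adjustment over all genes, with 0.05 as the threshold. The lines were fitted separately (6 libraries each), and differences between the lines in a fit of 12 libraries with 4 group means. Standard errors are the log2 fold change over the square root of F, and CPM are TMM-scaled except for the floor and the marker sums. The common biological coefficient of variation was 0.0478 in OCI-AML2, 0.0366 in MOLM-13 and 0.0431 in the joint fit. The procedure was tested on simulated counts. Positions and exon lengths are from GENCODE 29 (GRCh38).

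The members and lists were chosen with earlier results of these data known. All members are named or counted. Values in every library are given for members called the same way in both lines with an absolute log2 change of at least 0.5 in both, or with a called difference between the lines of at least 0.5, and for ERCC5, which was added after its values were seen. Of the other genes, up to 4 per pathway with the smallest p were named, and 1 gene taken by this rule is not reported here. Results were recomputed with upper quartile scaling, with size factors from DESeq2, without the filter, with DESeq2 1.42.0 itself, from the 12-library fit and without each library in turn.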

Additional observations from a re-analysis of the deposited data

Results flagged for a closer look

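The tested difference between the lines in the change with selinexor (edgeR, MOLM-13 change minus OCI-AML2 change, log2) marked 11 members. It was -0.60 for UNG (adjusted p 9.1e-09), -0.57 for MSH6 (4.9e-08), -0.41 for MSH3 (0.011), -0.39 for OGG1 (0.0028) and -0.30 for ERCC3 (0.020). It was 0.83 for NEIL1 (8.1e-06), 0.60 for POLB (0.0016), 0.53 for NEIL2 (0.0052), 0.41 for TDG (1.9e-05), 0.31 for LIG3 (0.0058) and 0.18 for PRKDC (0.011). NEIL1 and OGG1 share exonic bases with opposite-strand genes, MAN2C1 with changes of 0.19 in OCI-AML2 and 1.02 in MOLM-13, and CAMK1 with 0.89 and -0.07. LIG3 shares 3754 exonic bases with opposite-strand RFFL, with changes of 0.09 in OCI-AML2 and 0.36 in MOLM-13. MSH6 shares 1785 with opposite-strand FBXO11, with changes of -0.06 and -0.14. The log2 ratio of XRCC1 over LIG3 was higher in all selinexor libraries of OCI-AML2 than with vehicle and lower in all of MOLM-13, a difference of -0.51 between the lines that was not tested.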

How the results depend on the processing

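No paired analysis was possible because the count columns carry no replicate numbers. Of the members called in OCI-AML2, 15 of 21 kept the call under all 11 alternatives, as did 17 of 20 in MOLM-13. Of the called differences between the lines, 7 of 11 (MSH6, UNG, TDG, NEIL1, NEIL2, POLB and LIG3) held under all 16 alternatives, and with vehicle 12 of 14 did (MUTYH and XRCC6 did not). None of the called values changed sign. Sign changes occurred only for values called under neither setting. The number of members with a lower change in MOLM-13, 5, was 3 under DESeq2 and ranged from 2 to 5 when 1 library was left out. It was 2 without OCI-AML2 vehicle library 1 or MOLM-13 vehicle library 2, and 3 without OCI-AML2 vehicle library 2 or MOLM-13 selinexor library 1. Over all genes, the count with a lower change in MOLM-13 (2380) ranged from 1450 (without MOLM-13 vehicle library 2) to 2236 and was 1542 without OCI-AML2 vehicle library 1. The count with a higher change (1388) ranged from 1228 to 2084 (without OCI-AML2 vehicle library 2). Leaving out any OCI-AML2 vehicle library or MOLM-13 vehicle library 2 moved the median difference of all genes by 0.091 to 0.093 (log2), and upper quartile scaling moved the median change by 0.055 (OCI-AML2) and 0.070 (MOLM-13). The causes were not tested. PARP1 gained a difference call without OCI-AML2 vehicle library 1, 2 or 3 or MOLM-13 vehicle library 2 (0.14 to 0.17), and ERCC5 without OCI-AML2 vehicle library 3 (-0.75). MSH3, OGG1, PRKDC and ERCC3 lost theirs under at least 1 alternative. XRCC5 gained a call with vehicle without 5 of the 6 vehicle libraries, left out singly (-0.09 to -0.14). In OCI-AML2, ERCC5, LIG4 and XPA had the lowest vehicle levels of the called members, where counting error is largest.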
